A study of Mus musculus with 9 samples.

Results

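Charcot-Marie-Tooth disease is an inherited neuropathy of peripheral nerve, and its demyelinating forms arise from mutations in genes that Schwann cells need to build or keep myelin. Some of these genes encode structural myelin proteins, and others encode enzymes and adaptors of membrane traffic, of the cytoskeleton and of mitochondria. The genes described here are of the second kind: Mtmr2, Sbf1, Sbf2, Fig4, Sh3tc2, Ndrg1, Litaf, Fgd4 and Gdap1, 9 of the 36121 genes in the table, chosen as a list of non-structural genes of demyelinating or intermediate hereditary neuropathy from what the genes are known for and not by a rule on measured values, although earlier results of these data were known when the list was made. All 9 reached the minimum mean level of 1 normalized TPM and were among the 15014 genes tested.

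Mtmr2 encodes a phosphatase that removes the 3-phosphate from phosphatidylinositol 3-phosphate (PI3P) and from phosphatidylinositol 3,5-bisphosphate, written PI(3,5)P2, lipids that mark endosomes. Sbf1 and Sbf2 encode catalytically inactive relatives that bind to it, and Fig4 encodes a lipid phosphatase in the complex that also makes PI(3,5)P2. Loss of Mtmr2 or Sbf2 is known for excess, folded myelin loops, and loss of Sh3tc2, an adaptor of recycling endosomes, or of Fgd4, an activator of the small GTPase Cdc42, also disturbs myelin.

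RNA was sequenced from sciatic nerves of 9 C57BL6 mice aged 21 days, 3 per genotype, with 2 females and 1 male in each. Control mice carried both floxed copies of Tardbp, the gene of the RNA-binding protein TDP-43, and no Cre. The cHet mice carried Cnp-Cre with 1 floxed copy (Tardbp-fl/+), and the cKO mice carried Cnp-Cre with both copies floxed (Tardbp-fl/fl). Cnp-Cre was used by the study for Schwann cells and oligodendrocytes. Whether neurons, fibroblasts, vessels and other cells of these nerves kept their Tardbp was not measured here. Cnp-Cre replaces a copy of Cnp, so that cHet and cKO nerves differed from control nerves in Cnp as well. By the study's methods, mice compared with each other came from a shared litter or from litters born close together, but the labels do not say which libraries share a litter, so that litter could not enter the tests.

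The group of each library was taken from its title. For 3 libraries the genotype field went against the title: cHet replicate 1 was entered as floxed without Cre, and cKO replicates 1 and 2 were entered with 1 floxed copy. Levels are in normalized TPM, a unit set per transcript length and scaled further between libraries, which keeps no sequencing depth. Tardbp stood at 185, 194 and 217 in control nerves, at 177, 179 and 186 in cHet nerves and at 103, 94.2 and 103 in cKO nerves. The 3 libraries titled cKO thus lay below all others, those with the conflicting field included. Tardbp fell in cKO against control nerves, with a log2 fold change of -0.98 (SE 0.09, limma adjusted p = 0.00219). The value was -0.94 without the 3 libraries with a conflicting field (adjusted p = 0.356, with 1 cKO nerve left), and between -1.02 and -0.95, with no call, without the nerves high in neuron, muscle or fat markers. Cnp stood between 640 and 849 in the 3 libraries titled cHet and between 1168 and 1700 in the control libraries, and the cHet library with the conflicting field was the lowest of the cHet nerves. All 12 markers of myelinating Schwann cells were present in every library, with a summed level of 77960 to 135555. Markers of neurons summed to 190 to 4607 in control, 191 to 1846 in cHet and 379 to 2032 in cKO nerves, and 16 of 16 were higher in 3 libraries, 1 of each genotype (control replicate 2, cHet replicate 1 and cKO replicate 3), than in the other 6. Muscle markers were high in control replicate 1 and cKO replicates 2 and 3, with summed levels of 20218, 762 and 10648. Among these, cKO replicate 2 thus stood far below the others. Fat markers were high in control replicates 1 and 3.

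The phosphatase genes differ in the short coding stretch that holds, in active enzymes of this kind, the catalytic cysteine and arginine. The stretch is shown because it separates the active enzymes from their inactive partners. Capitals mark the codons of the cysteine and arginine in Mtmr2 and Fig4 and, in Sbf1 and Sbf2, the codons that stand at the same places. The sequences were read from GENCODE M21 transcripts on GRCm38: Mtmr2 from exon 11 (chr9:13799942-13799968, plus strand), Sbf1 from exon 32 (chr15:89294409-89294435, minus strand), Sbf2 from exon 32 (chr7:110330616-110330642, minus strand) and Fig4 from exon 14 (chr10:41253744-41253770, minus strand).
Mtmr2: cacTGCagtgatggatgggatCGCaca
Sbf1: agcCTGgaggacggctgggacATCacc
Sbf2: tgtTTAgaagaaggctgggacATCact
Fig4: aacTGTgtggactgtttggatCGCacc
Mtmr2 and Fig4 hold a TGC or TGT codon followed at the fixed distance by CGC. In Sbf1 and Sbf2 the same places hold CTG or TTA and ATC, so that neither codon is kept in the inactive partners.

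Whether loss of TDP-43 from Schwann cells moved these genes was asked by comparing cKO with control nerves. None of the 9 genes passed the test: at an adjusted p under 0.05 limma called 0 of 9, against 1.57% of all tested genes, and at an unadjusted p under 0.05 it called 1 of 9, Litaf, against 12.9% of all tested genes. The median log2 fold change of the 9 genes was 0.01, and that of all tested genes was -0.02. Leaving Gdap1 aside, the 95% intervals of the other 8 genes ran from -0.62 for Fig4 to 0.70 for Sbf1 on the log2 scale, so that no interval reached beyond a 1.63-fold change. In bulk nerve, fewer cells of a type and less RNA per cell cannot be told apart.

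In the comparison of cHet with control nerves limma also called 0 of 9, where 0% of tested genes were called, and 0 of 9 at an unadjusted p under 0.05 (2.72% of tested genes). The intervals of the same 8 genes reached no further than a 1.54-fold change. Comparing cKO with cHet nerves, in which both groups carry Cnp-Cre, limma called 0 of 9 against 1.71% of tested genes. At an unadjusted p under 0.05 it called 2 of 9, Litaf and Fgd4 in opposite directions, against 14.6% of tested genes, and the intervals reached no further than 1.64-fold. The comparisons share their control, cHet or cKO mice with each other and are not independent.

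**Figure D1:**
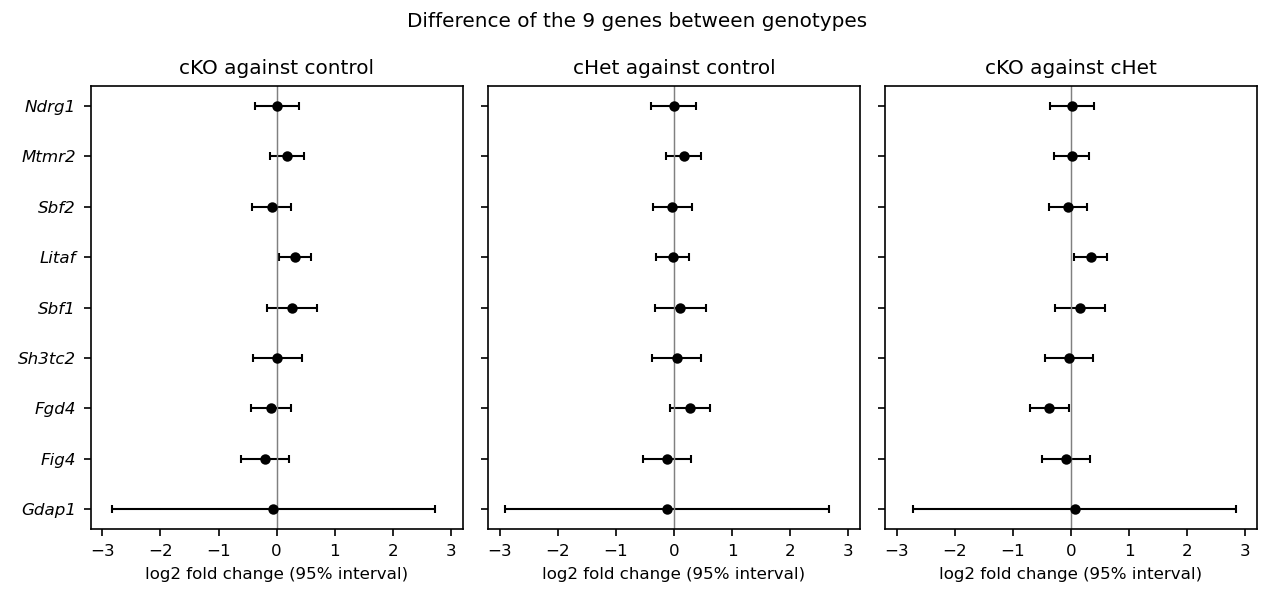
Log2 fold change (horizontal axis, log2 scale) of each of the 9 genes in the 3 comparisons between genotypes; points are limma estimates from 3 nerves per genotype and bars are 95% intervals. The intervals of Litaf against control and cHet nerves and that of Fgd4 between cKO and cHet nerves leave out 0 before adjustment over all tested genes, and Gdap1 has the widest bars.

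Mtmr2 (ENSMUSG00000031918, chr9:13748410-13806481, plus strand; all gene positions are on GRCm38, from GENCODE M21) was the most abundant gene of the lipid phosphatase group. It stood at 134, 150 and 152 in control, 134, 182 and 177 in cHet and 154, 180 and 159 in cKO nerves. The cKO values all lay above the control values, although the gap between them was small beside the spread of the cHet nerves. The means were 145 ± 9.6 (SD, n = 3), 164 ± 26.4 and 165 ± 13.4, and the log2 fold change of cKO against control was 0.18 (SE 0.13, limma adjusted p = 0.647). Against control nerves, Mtmr2 and Litaf were the 2 members whose cKO values all lay above the control values, and 8.85% of tested genes did so. No member had all cKO values below the control values (8.57% of tested genes).

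Sbf1 (ENSMUSG00000036529, chr15:89288236-89315311, minus strand), the inactive partner also called MTMR5, stood at 39.6, 36.9 and 59.5 in control, 53.2, 44.3 and 46.7 in cHet and 46.4, 63.1 and 52.4 in cKO nerves. Its 3 groups overlapped, and the log2 fold change of cKO against control was 0.27 (SE 0.19, limma adjusted p = 0.629). That value was 0.53 without control replicates 1 and 3, the nerves high in fat markers, with 1 control nerve left. It was -0.02 without the nerves high in muscle markers, with 1 cKO nerve left. Sbf2 (ENSMUSG00000038371, chr7:110308013-110614922, minus strand), also called MTMR13, stood at 70.5, 75.0 and 85.1 in control, 60.6, 90.4 and 77.4 in cHet and 76.5, 72.8 and 67.9 in cKO nerves. It overlapped as well, with a log2 fold change of -0.08 (SE 0.15). The balance within the group was also compared. The level of Mtmr2 over the summed level of Sbf1 and Sbf2 was 1.20 ± 0.146 in control, 1.32 ± 0.127 in cHet and 1.30 ± 0.0387 in cKO nerves (SD, n = 3), with an exact permutation p of 0.4 for cKO against control. Sbf2 over Sbf1 was 1.75 ± 0.303, 1.61 ± 0.453 and 1.37 ± 0.255, with an exact permutation p of 0.2. An exact permutation test of 3 mice against 3 cannot give a two-sided p below 0.1.

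Fig4 (ENSMUSG00000038417, chr10:41188172-41303260, minus strand), the phosphatase of the complex with Pikfyve and Vac14, stood at 11.3, 16.9 and 11.0 in control, 13.5, 11.4 and 10.5 in cHet and 10.4, 10.3 and 12.6 in cKO nerves. In each genotype 1 nerve stood above the other two, and that nerve was the one high in neuron markers. The log2 fold change of cKO against control was -0.21 (SE 0.18, limma adjusted p = 0.723), and -0.10 without the 3 libraries high in neuron markers.

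Sh3tc2 (ENSMUSG00000045629, on chromosome 18), the adaptor of recycling endosomes, stood at 31.5, 35.0 and 48.2 in control, 33.3, 43.8 and 40.5 in cHet and 36.6, 45.0 and 33.3 in cKO nerves. Each genotype covered much the same range, and the log2 fold change of cKO against control was 0.01 (SE 0.18, 95% interval -0.41 to 0.43). Ndrg1 (ENSMUSG00000005125, chr15:66929318-66969640, minus strand), a cytoplasmic protein abundant in Schwann cells and a substrate of the kinase Sgk1, stood at 1108, 1174 and 1402 in control, 1052, 1377 and 1245 in cHet and 1169, 1474 and 1076 in cKO nerves. The groups overlapped throughout, with means of 1228 ± 155, 1224 ± 163 and 1240 ± 208 (SD, n = 3) and a log2 fold change of 0.01 (SE 0.17, 95% interval -0.37 to 0.39). Antisense and promoter-associated transcripts overlap Ndrg1 on the opposite strand, and whether the counting used strand is not given in the sources used here.

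Litaf (ENSMUSG00000022500, chr16:10959275-11066157, minus strand) encodes a small membrane protein of late endosomes and lysosomes that takes part in sorting membrane proteins for degradation. It stood at 61.1, 59.2 and 79.3 in control, 59.6, 70.8 and 65.0 in cHet and 80.9, 85.1 and 80.9 in cKO nerves. All cKO values lay above all control and cHet values, by a small margin over control replicate 3. The means were 66.5 ± 11.1, 65.2 ± 5.61 and 82.3 ± 2.44 (SD, n = 3). In the cKO the mean reached 124% of that in control nerves (log2 fold change 0.32, SE 0.12, 95% interval 0.04 to 0.60, limma adjusted p = 0.316). It reached 126% of that in cHet nerves (log2 fold change 0.34, SE 0.12, limma adjusted p = 0.247). The difference did not pass adjustment in either comparison. Over the 25 alternatives, those that leave out libraries included, the log2 fold change of Litaf against control ran from 0.24 to 0.47. The lowest limma adjusted p among them was 0.0960. Without the 3 libraries with a conflicting genotype field, which leaves 1 cKO nerve, the log2 fold change was 0.29 (SE 0.20, limma adjusted p = 0.985). A processed pseudogene, Gm3919, lies within Litaf on the same strand, and the part of its reads in these values is unknown.

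Fgd4 (ENSMUSG00000022788, chr16:16416917-16600549, minus strand), also called frabin, activates Cdc42. It stood at 11.9, 11.3 and 11.1 in control, 12.5, 14.1 and 15.4 in cHet and 11.5, 8.49 and 12.4 in cKO nerves. The cHet values all lay above those of both other groups, and the control and cKO values overlapped. The means were 11.4 ± 0.399, 14.0 ± 1.44 and 10.8 ± 2.06 (SD, n = 3). Fgd4 was the only member whose cHet values all lay above the control values (2.69% of tested genes), with a log2 fold change of 0.28 (SE 0.15, 95% interval -0.07 to 0.62). None lay below (4.41% of tested genes). Between cKO and cHet nerves the mean of Fgd4 in the cKO was 77.2% of that in the cHet (log2 fold change -0.37, SE 0.15, 95% interval -0.71 to -0.03), and it did not pass the limma adjustment. Fgd4 was the 1 member with all cKO values below the cHet values (11% of tested genes), as Litaf was the 1 member with all above (13.3%). Without the 3 libraries with a conflicting genotype field the log2 fold change of Fgd4 was -0.24 between cKO and cHet and 0.11 between cKO and control nerves.

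Gdap1 (ENSMUSG00000025777, chr1:17145362-17164271, plus strand) encodes a protein of the outer mitochondrial membrane that is expressed in neurons and in Schwann cells. It stood at 1.57, 16.0 and 0.25 in control, 8.90, 0.77 and 1.19 in cHet and 1.20, 1.15 and 7.63 in cKO nerves. In each genotype 1 nerve was far above the other two, and the highest value was 63.8 times the lowest. The within-group SD of its log2 value was 1.76, larger than in 98.4% of tested genes (median of all tested genes 0.21), while the SDs of the other 8 members lay between 0.15 and 0.26. The SE of its log2 fold change was 1.22, and the 95% interval for cKO against control, -2.84 to 2.73, was wider than that of any other member.

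**Figure D2:**
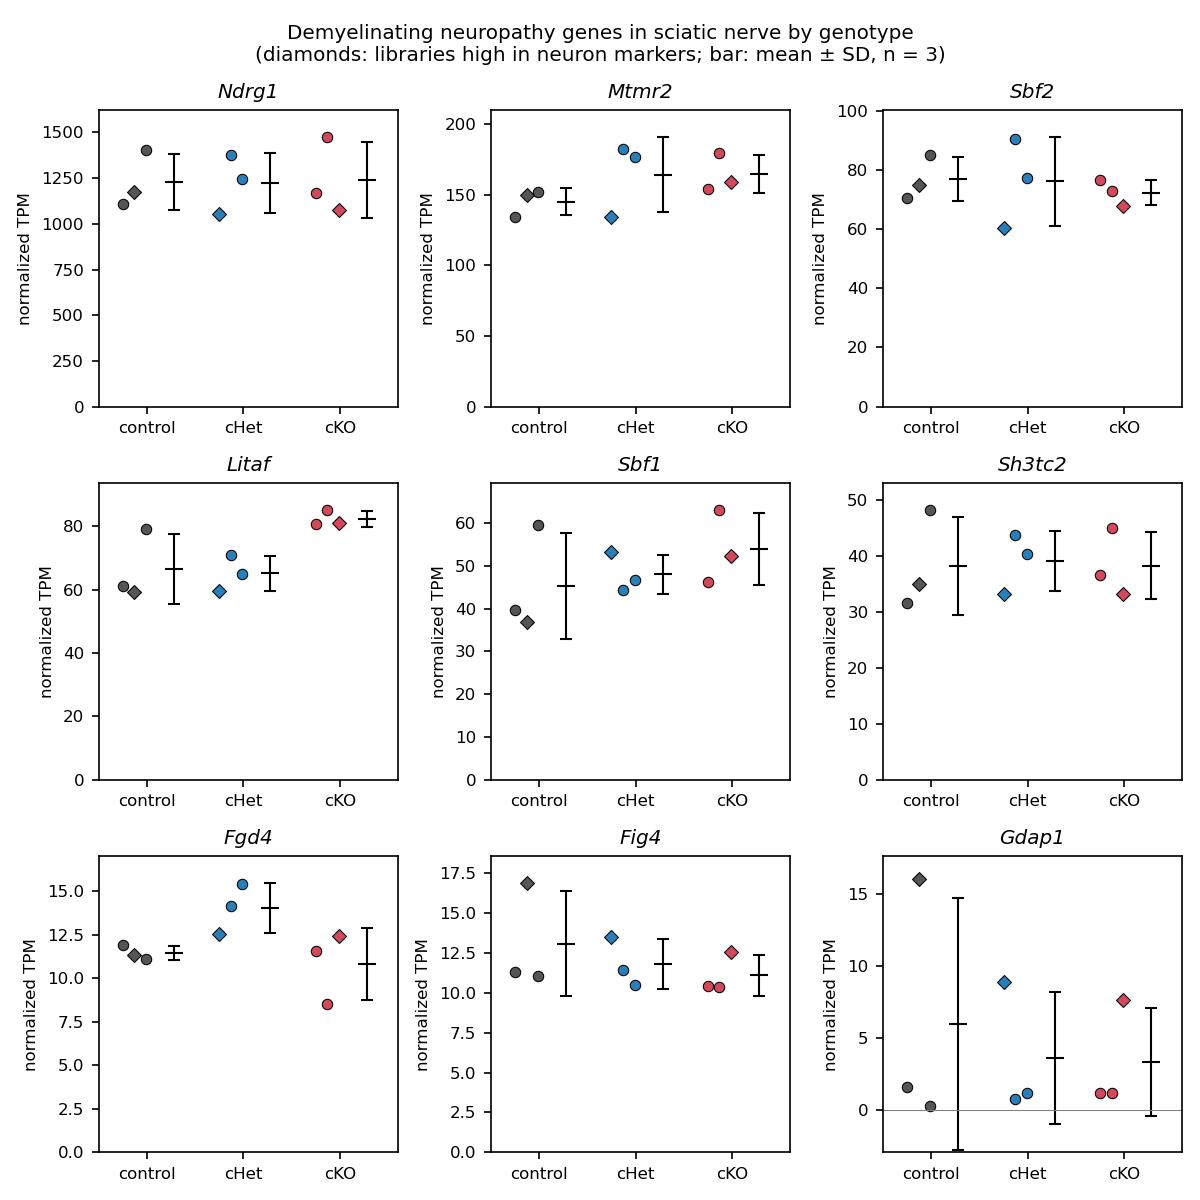
Level of each of the 9 genes in normalized TPM (vertical axis, linear) by genotype; each point is 1 nerve, diamonds are the 3 nerves high in neuron markers, and the bar is mean ± SD of 3 nerves. Litaf values in cKO nerves, 80.9 to 85.1, lie above all others of that gene, Fgd4 is highest in cHet nerves, and Gdap1 and Fig4 are highest in the diamond of each genotype.

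The same nerves were high in both Gdap1 and Fig4. In the 3 libraries high in neuron markers Gdap1 stood between 7.63 and 16.0, and in the other 6 between 0.25 and 1.57. Fig4 stood between 12.6 and 16.9 in the 3 libraries and between 10.3 and 11.4 in the other 6. For the other 7 members the values of these 3 libraries overlapped those of the other 6. The neuron marker scores fell into separate clusters, so that no pooled correlation is given. The part of neuronal RNA in the levels of Gdap1 and Fig4 was not tested. Over the 9 libraries the 2 genes most like Gdap1 in log2 level were Rcan2 (Pearson's r = 0.99) and Rab3c, a small GTPase of synaptic vesicles (r = 0.99), and those most like Fig4 were Cabp7, a calcium-binding protein (r = 0.98), and Uba1, the enzyme that activates ubiquitin (r = 0.98). These r are a description over libraries that differ in neuron content.

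Sh3tc2 and Ndrg1 followed the level of myelin genes over the nerves of all genotypes. A score was set as the mean log2 value of the 12 markers of myelinating Schwann cells, relative to the median library. It ran from -0.15 in cHet replicate 1 to 0.29 in control replicate 3, with the widest step between 0 and 0.16. Over the 9 libraries the log2 level of Sh3tc2 had a Pearson's r of 0.971 with this score (two-sided exact permutation p = 9.645e-05, 0.000521 after adjustment over the 9 members) and a Spearman's rho of 0.967 (exact permutation p = 0.000165, adjusted 0.00149). For Ndrg1 r was 0.965 (exact permutation p = 0.000116, adjusted 0.000521) and rho 0.917 (exact permutation p = 0.00131, adjusted 0.00590). Without control replicate 3 and cHet replicate 2, the libraries farthest from the median score, r was 0.966 for Sh3tc2 and 0.957 for Ndrg1.

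Among the 15014 tested genes Sh3tc2 had the highest r with the score, the 12 markers themselves included, and 4 genes, Ndrg1 included, had an r at least as high as that of Ndrg1. The relation was also computed without the libraries that stand apart. For Sh3tc2 r was 0.971 in the 6 libraries not high in neuron markers and 0.979 in the 6 without a conflicting genotype field. For Ndrg1 r was 0.937 and 0.984 in the same sets. With each library rescaled to the same sum, r was 0.970 for Sh3tc2 and 0.973 for Ndrg1. Genes are not independent of each other, and the part of the amount of Schwann cell RNA in each nerve in these levels was not tested.

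Sbf2 had an r of 0.827 (exact permutation p = 0.00301, adjusted 0.00904) and a rho of 0.867 (exact permutation p = 0.00451, adjusted 0.0101). Its r was 0.648 without the 2 farthest libraries. Of tested genes, 1.47% had an r at least as high as that of Sbf2. Mtmr2 did not pass the adjustment, with r = 0.752 (exact permutation p = 0.0274, adjusted 0.0548) and rho = 0.683 (adjusted 0.0906). An r at least as high as that of Mtmr2 was found in 3.32% of tested genes. Gdap1 had a negative r of -0.735 (exact permutation p = 0.0305, adjusted 0.0548) and a rho of -0.883 (exact permutation p = 0.00308, adjusted 0.00923). The r of 95.6% of tested genes was at least as high as that of Gdap1. The high values of Gdap1 lie in the 3 libraries high in neuron markers, whose myelin scores were all at or below -0.01. Its r and rho over all libraries thus join separate clusters of values, and no conclusion is drawn from them. In the 6 libraries not high in neuron markers r was -0.713 for Gdap1, where its values, 0.25 to 1.57, lay near the pseudocount of 0.5. For Sbf1, Fig4, Litaf and Fgd4 r lay between -0.482 and 0.462, with adjusted exact permutation p-values from 0.257 to 0.806.

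With the Schwann cell score as a covariate, an alternative added after seeing the data, the log2 fold change of cKO against control was 0.02 (SE 0.08) for Sh3tc2 and 0.02 (SE 0.09) for Ndrg1, with SEs below those without it. Sh3tc2 and Ndrg1 had r of 0.971 and 0.965 with the score in the same libraries, so that the covariate took up most of their spread. Litaf had 0.32 (SE 0.08, limma adjusted p = 0.115) against control and 0.37 (SE 0.09, adjusted p = 0.0753) against cHet nerves in that fit. The score is not free of genotype. Among its markers all cKO values of Egr2, Gjb1 and S100b lay above the control values (8.85% of tested genes). Those of Mbp and Drp2 all lay below (8.57%), and the other markers overlapped.

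**Figure D3:**
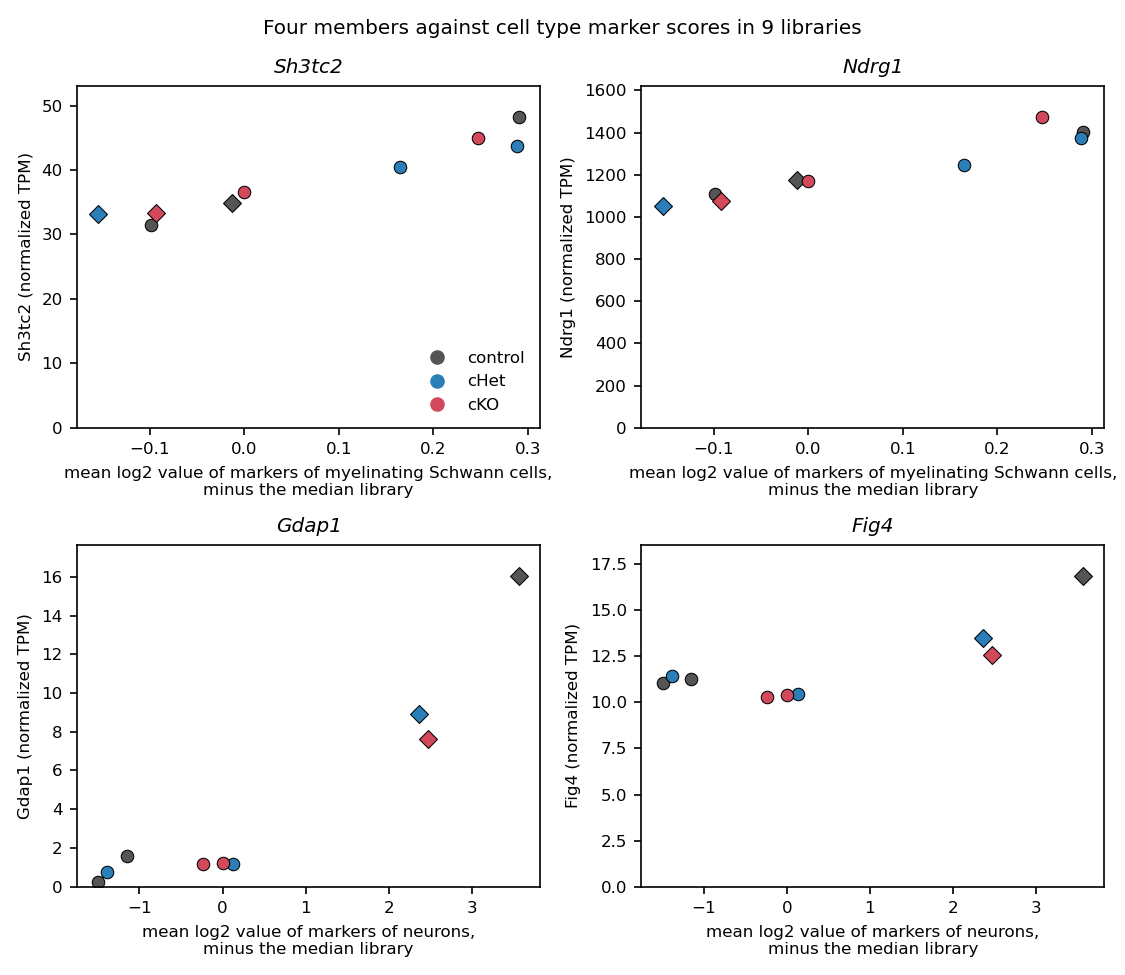
Level of Sh3tc2 and Ndrg1 in normalized TPM against the myelinating Schwann cell marker score, and of Gdap1 and Fig4 against the neuron marker score (mean log2 value of the markers minus the median library) in 9 nerves; colours are genotypes and diamonds are the nerves high in neuron markers. Sh3tc2 and Ndrg1 rise with the Schwann cell score over all genotypes (r = 0.971 and 0.965), and Gdap1 and Fig4 are highest in the 3 diamonds.

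The order of mean levels over all nerves was Ndrg1 (1231), Mtmr2 (158), Sbf2 (75.1), Litaf (71.3), Sbf1 (49.1), Sh3tc2 (38.6), Fgd4 (12.1), Fig4 (12.0) and Gdap1 (4.30), in normalized TPM. Ndrg1 was above 99.5% of tested genes and Gdap1 above 22.1%. Each gene stood above the next in 9 of 9 libraries, except that Sbf2 stood above Litaf in 6 and Fgd4 above Fig4 in 5, so that these neighbours did not differ beyond their spread. For each other member the 2 genes most like it over the 9 libraries, by Pearson's r of log2 levels, were Nab2 (0.99), a corepressor that binds Egr2, and Pfas (0.97) for Sh3tc2. They were Tor2a (0.99) and Med8 (0.97) for Ndrg1, Nagpa (0.99) and Ric1 (0.93) for Sbf2, and Sbspon (0.94) and Ddah1 (0.93) for Mtmr2. For Litaf they were Arhgef37 (0.98) and Pisd (0.98), for Fgd4 Phc3 (0.96) and Zdhhc9 (0.96), and for Sbf1 Cwf19l1 (0.91) and Ccdc189 (0.90). These values carry no test. Between members the highest r was that of Sh3tc2 with Ndrg1 (0.95), followed by Fig4 with Gdap1 (0.87). Fig4 and Gdap1 were both highest in the libraries high in neuron markers, so that their r only describes libraries that differ in neuron content.

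TDP-43 is known to bind UG repeats in RNA. The longest protein-coding transcript of each member was searched on its sense strand for 6 TG pairs in a row. None of the 9 held the run, against 7.45% of 13991 tested genes with such a transcript, and the longest run in a member was 3 or 4 pairs. Introns were not searched.

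Genes of the same pathways were read beside the members. Of 20 genes of PI3P and PI(3,5)P2 turnover, which hold the kinases, the other myotubularins and the channels that PI(3,5)P2 opens, 2 were higher in cKO than in control nerves (0.932% of tested genes were) and 0 lower (0.633%). The same 2 were higher in cKO than in cHet nerves (0.932% of tested genes were higher and 0.773% lower), and limma called 0 of 20 between cHet and control nerves, with 0 at an unadjusted p under 0.05. The median log2 fold change of the 20 genes was -0.01 for cKO against control. Tpcn2, a lysosomal channel opened by PI(3,5)P2, stood at 14.6, 10.5 and 13.5 in control, 12.7, 13.5 and 13.5 in cHet and 29.8, 28.4 and 29.7 in cKO nerves. The cKO nerves held more than any other nerve, with a log2 fold change of 1.17 (SE 0.12, limma adjusted p = 0.00471) against control and 1.12 (SE 0.12, limma adjusted p = 0.00583) against cHet nerves. The value without the 3 libraries with a conflicting genotype field was 1.19 (adjusted p = 0.443, with 1 cKO nerve left), and it was 1.03 (adjusted p = 0.0653) without the 3 high in neuron markers.

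Pik3c2a, a kinase that makes PI3P and related lipids, was the second. It stood at 19.8, 22.4 and 17.9 in control, 19.4, 21.4 and 21.9 in cHet and 33.1, 36.1 and 28.9 in cKO nerves. The cKO values lay above all others, with a log2 fold change of 0.69 (SE 0.12, limma adjusted p = 0.0310) against control and 0.63 (SE 0.12, adjusted p = 0.0422) against cHet nerves. Its call against control was lost when any of control replicates 1 and 3, cHet replicates 2 and 3 or the cKO replicates was left out, with log2 fold changes of 0.62 to 0.78. Pikfyve and Vac14, the partners of Fig4, did not pass: Pikfyve had means of 13.2 ± 0.728, 13.2 ± 1.46 and 14.0 ± 1.69 (SD, n = 3) in control, cHet and cKO nerves, and Vac14 had 11.7 ± 1.28, 11.0 ± 0.365 and 9.70 ± 1.17 (log2 fold change of cKO against control -0.26, SE 0.12, limma adjusted p = 0.436).

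**Figure D4:**
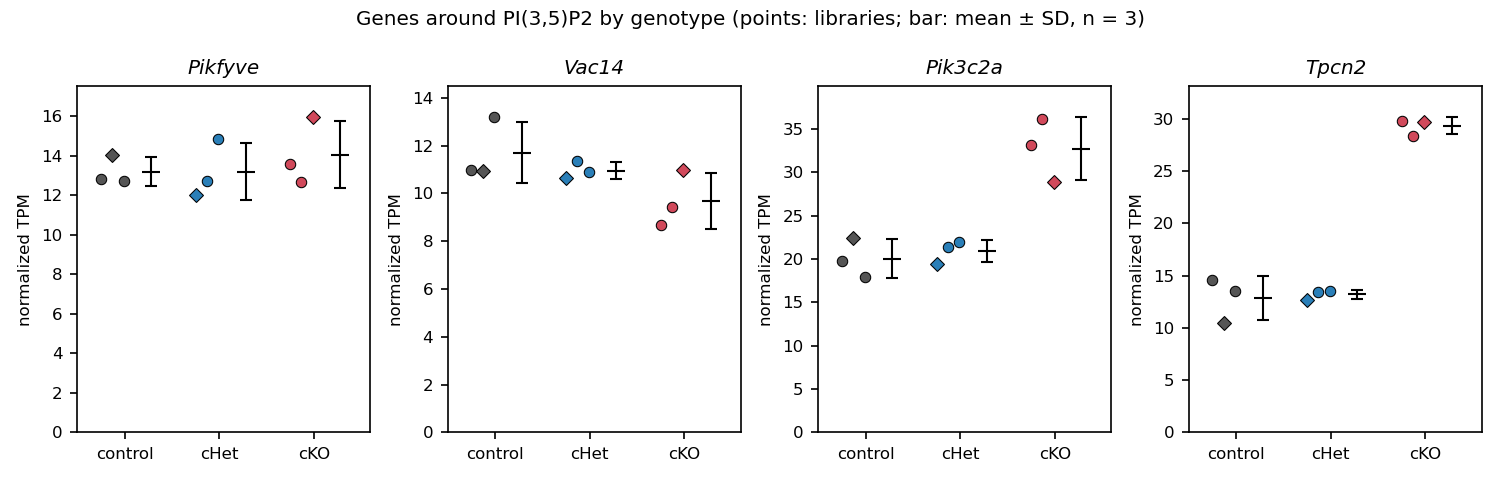
Level in normalized TPM (vertical axis, linear) of Pikfyve, Vac14, Pik3c2a and Tpcn2 by genotype; each point is 1 nerve, diamonds are the nerves high in neuron markers, and the bar is mean ± SD of 3 nerves. Tpcn2 and Pik3c2a lie higher in cKO nerves (lowest values 28.4 and 28.9) than in control nerves (highest values 14.6 and 22.4), and Pikfyve and Vac14 overlap between genotypes.

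In 3 other pathways no gene was called between cKO and control nerves. These were 0 of 18 tested genes of endosomal recycling and ESCRT sorting, 0 of 15 of mitochondrial fusion, fission and transport, and 0 of 5 of the Ndrg family and Sgk kinases. At an unadjusted p under 0.05 limma called 3, 3 and 1 of them. Over all tested genes these shares were 1.57% at an adjusted and 12.9% at an unadjusted p under 0.05. Rab11fip1 and Sgk2 fell under the minimum level and were not tested. Among the endosomal genes the largest differences were those of Sh3tc1, the close relative of Sh3tc2 (-0.62, SE 0.26, limma adjusted p = 0.364), and of Stam, a sorting adaptor (0.30, SE 0.16, adjusted p = 0.476). Sgk1, the kinase that phosphorylates Ndrg1, had means of 195 ± 45.4, 223 ± 86.3 and 424 ± 22.6 (SD, n = 3) in control, cHet and cKO nerves. Its cKO values all lay above the others, as in 8.85% of tested genes against control and 13.3% against cHet nerves. Sgk1 did not pass (log2 fold change 1.14, SE 0.29, limma adjusted p = 0.113), and Ndrg4 had 0.20 (SE 1.24).

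Mfn1, which fuses outer mitochondrial membranes, was the gene of the mitochondrial list that passed in another comparison. It stood at 50.3, 62.6 and 50.1 in control, 41.5, 43.3 and 41.0 in cHet and 69.3, 81.6 and 70.3 in cKO nerves. The cHet values were the lowest and the cKO values the highest, without overlap. Of tested genes, 4.41% lay wholly lower in cHet than in control nerves, and 8.85% wholly higher in cKO than in control nerves. It was higher in cKO than in cHet nerves, with a log2 fold change of 0.80 (SE 0.11, limma adjusted p = 0.0132), and did not pass against control (0.44, SE 0.11, adjusted p = 0.112).

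Of 21 other genes of demyelinating or intermediate neuropathy, structural myelin genes among them, 1 was higher and 0 lower in cKO than in control nerves (0.932% and 0.633% of all tested genes), and 1 was higher and 1 lower in cKO than in cHet nerves (0.932% and 0.773%). Pmp2, a lipid-binding protein of peripheral myelin, stood at 1509, 1647 and 1130 in control, 1531, 1840 and 1545 in cHet and 3649, 4171 and 3602 in cKO nerves. It rose in the cKO, by a log2 fold change of 1.43 (SE 0.17, limma adjusted p = 0.00857) against control and 1.22 (SE 0.17, adjusted p = 0.0141) against cHet nerves. Itpr3, a calcium channel of the endoplasmic reticulum, had means of 70.9 ± 17.6, 77.1 ± 14.0 and 38.7 ± 0.590 (SD, n = 3). It was lower in cKO than in cHet nerves (log2 fold change -0.97, SE 0.18, limma adjusted p = 0.0427) and did not pass against control (-0.84, SE 0.18, adjusted p = 0.0747). Without the 3 libraries with a conflicting genotype field the log2 fold changes were 1.35 for Pmp2 against control and, against cHet nerves, 0.73 for Mfn1 and -1.15 for Itpr3, and none was past the threshold with 1 cKO nerve left. Without the 3 libraries high in neuron markers they were 1.58, 0.83 and -1.12, again with none past the threshold. The median log2 fold change of these 21 genes for cKO against control was -0.01, as that of all tested genes was -0.02.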

How the data were processed

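Bulk RNA from sciatic nerve of 9 mice was sequenced by the authors, 1 library per mouse. The deposited table holds a signal in normalized TPM per gene. Per the submitters' notes on processing, kallisto 0.44.0 and sleuth 0.30.0 were used with the build GRCm38, while the strandedness and scaling of the table are not given in the sources. The study names an Ensembl release for a separate alignment of these reads, and none for the table. Values summed to 934932 to 1158094 per library, so that the scaling went beyond TPM. The methods of the study give a range of reads over all samples but not the depth of each library, and TPM hold no counts, so that no counting error can be given. Genes with a mean of at least 1 were tested on log2(value + 0.5), a scale on which changes of low genes are understated. A model of 3 groups was fitted over all 9 libraries with limma 3.58.1 in R 4.3.3 (eBayes with trend), with Benjamini-Hochberg adjustment over all tested genes, a threshold of 0.05 and two-sided tests. The model was tested on simulated data. Symbols were matched by Ensembl identifier for 35471 of 36121 genes. No column was left unused. Alternatives changed the pseudocount, the filter, the scaling, the covariates, the moderation and the libraries. Libraries were called high in a marker list when their score was over 1 (log2) above the median library.

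The members, the gene lists and the markers were chosen with earlier results of these data known. Named genes are the members, Tardbp, Cnp, up to 4 genes past the threshold in each list (where none passed, the 2 with the largest difference of cKO against control), and the 2 genes most like each member. The result of 1 pathway list is not reported here. Pikfyve and Vac14 were named outside this rule, as partners of Fig4. Markers of macrophages, fibroblasts, perineurial cells and vessels were read as well, and no library was high in them; red blood cell markers were high in cKO replicate 3. No marker gene of any list passed the threshold in any comparison.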

Additional observations from a re-analysis of the deposited data

How the results depend on the processing

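The count of members past the threshold stayed at 0 in each comparison under all 25 alternatives. With the filter set to a higher minimum level Gdap1 was not tested. The fits without several libraries called at most 19 genes between cKO and control nerves, so that they say nothing of stability, and where a group kept 1 nerve it was assumed to vary like the others. No paired analysis was possible because the labels do not say which libraries share a litter. Rescaling to the same sum moved the median of all tested genes between cKO and cHet nerves from 0.02 to -0.12, and the differences below are to be read beside that shift. No reversed difference was past the threshold before or after; they included Sbf1 in cKO against control (0.27 as reported) and Gdap1, whose values ranged widely. On the log2 scale, with same-sum rescaling they were, against control, -0.052 for Sh3tc2 and -0.059 for Ndrg1 in cKO and 0.048 for Sbf2, 0.072 for Ndrg1 and 0.056 for Litaf in cHet, and, between cKO and cHet, -0.13 for Mtmr2, -0.13 for Ndrg1 and -0.046 for Gdap1. Median-of-ratios scaling gave 0.0038 for Ndrg1 in cHet. A pseudocount of 0.1 gave Gdap1 0.14 in cKO and 0.030 in cHet against control. The neuron score as a covariate gave Gdap1 -0.24 between cKO and cHet, and the Schwann cell score, added after seeing the data, gave Gdap1 -0.25 and Sh3tc2 0.023 there and Gdap1 0.14 in cHet against control. Without the 3 libraries with a conflicting genotype field the values against control were -0.17 for Sh3tc2, -0.18 for Ndrg1, 0.11 for Fgd4 and 1.46 for Gdap1 in cKO and 0.13 for Sbf2, 0.10 for Ndrg1 and 0.041 for Litaf in cHet, and between cKO and cHet -0.17 for Mtmr2, 0.19 for Fig4 and -0.28 for Ndrg1. Without the nerves high in fat markers, cHet against control gave 0.0021 for Sbf2, 0.052 for Ndrg1 and 0.13 for Litaf. Without those high in neuron markers, Gdap1 gave 0.43 in cKO and, in cHet, Sbf1 gave -0.093, Sbf2 0.11, Ndrg1 0.071 and Gdap1 0.23 against control, and Mtmr2 gave -0.11 between cKO and cHet. Without those high in muscle markers, cKO against control gave -0.015 for Sbf1, -0.16 for Sh3tc2, -0.13 for Ndrg1 and 0.038 for Fgd4, cHet against control gave -0.077 for Sh3tc2, and cKO against cHet gave -0.076 for Mtmr2, -0.047 for Sbf1, 0.025 for Sbf2, -0.058 for Ndrg1 and -0.68 for Gdap1. The cause of these changes was not tested.

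Leaving out each nerve in turn, the ranges that changed sign were, for cKO against control, -0.11 to 0.19 for Sh3tc2, -0.12 to 0.11 for Ndrg1, -0.20 to 0.063 for Fgd4 and -1.04 to 1.19 for Gdap1. For cHet against control they were -0.019 to 0.32 for Sbf1, -0.16 to 0.13 for Sbf2, -0.23 to 0.069 for Fig4, -0.077 to 0.23 for Sh3tc2, -0.094 to 0.10 for Ndrg1, -0.098 to 0.11 for Litaf and -1.10 to 1.13 for Gdap1. For cKO against cHet they were -0.13 to 0.092 for Mtmr2, -0.21 to 0.078 for Sbf2, -0.17 to 0.013 for Fig4, -0.15 to 0.060 for Sh3tc2, -0.12 to 0.11 for Ndrg1 and -0.70 to 0.95 for Gdap1. The other members kept their sign, Litaf at 0.24 to 0.45 against control and 0.28 to 0.40 against cHet, and Fgd4 at -0.48 to -0.21 against cHet. Tpcn2 kept its call against control in 22 of 25 alternatives, Pmp2 in 20, and Pik3c2a in 12. Between cKO and cHet the calls were kept in 22 for Tpcn2, 16 for Pmp2, 18 for Mfn1, 12 for Itpr3 and 7 for Pik3c2a.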
